A study of Homo sapiens with 12 samples.

Results

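The hnRNP and SR splicing factors are the genes whose symbol begins with HNRNP or SRSF in the count table of a ribosome profiling (Ribo-seq) experiment in HCT116, a cell line from a human colorectal carcinoma. This rule took 37 of the 15798 listed genes, 25 named HNRNP and 12 named SRSF. They received either 100 nM of the MEK1/2 inhibitor trametinib or DMSO, the solvent, for 24 h, to find mRNA-specific changes in translation. For each treatment, cytoplasmic input RNA (IN), which measures mRNA abundance, and ribosome protected fragments (RPF, here called footprints), which measure ribosomes on the mRNA, were sequenced in 3 biological replicates. There were thus 4 groups of 3 libraries: DMSO input, trametinib input, DMSO footprints and trametinib footprints. All 12 libraries come from one cell line, one dose and one time, and all dishes received cycloheximide shortly before lysis. Ribosome density is the ratio of footprints to input, and its change under trametinib is the change in footprints beyond that in input.

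hnRNP proteins coat nascent and mature RNA, and many of them silence or select splice sites, export mRNA or control its stability. SR proteins carry RNA recognition motifs and a domain rich in arginine and serine, bind exonic enhancers, recruit the spliceosome and are steered by SR protein kinases. Members of both families regulate their own mRNAs, often through exons that send the transcript to decay, and both families are abundant in dividing cells. HNRNPA1 is known as a mRNA of the 5′TOP type, in which a cytosine followed by a run of pyrimidines at the start of the mRNA couples translation to mTOR through the repressor LARP1.

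Total counts ranged from 2276693 to 2845568 in the input libraries and from 10127477 to 19181588 in the footprint libraries. The epithelial markers EPCAM, KRT8, KRT18, KRT19 and CDH1 were all present, with 174 counts or more in every input library, whereas PTPRC, CD3E and PECAM1 reached at most 1 count in any input library. Of the other markers, CD68 had 0 to 3 input counts, VWF 1 to 23, COL1A1 14 to 36, COL3A1 0 to 42 and ACTA2 13 to 16. The summed input counts of all 8 markers of other cells ran from 47 to 52 under DMSO and from 87 to 97 under trametinib, against 13519 to 20584 and 20298 to 23749 for the epithelial markers, and the part of these differences in the results was not tested. All 6 genes of a list of ERK output, among them DUSP6 and ETV4, fell in input and in footprints. DMSO replicate 1 deviated from its group in the same genes in input and footprints (r = 0.806 over 8419 genes, a description), and results are therefore given without it where they move. Counts are parts of a library, so that fewer cells and less RNA per cell cannot be told apart. All changes in input, footprints and density given here are relative to the other mRNAs of the libraries.

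The annotated start of the mRNA was looked up first, because 5′TOP regulation depends on the start. RefSeq (GRCh38.p14) gave a promoter, 250 bases before to 50 after the start, for 34 of the 37 members, with HNRNPA1, HNRNPA1P48 and SRSF2 unmatched. A cytosine at the annotated start followed by at least 4 further C or T bases was found in 2 of the 34 (5.88%), HNRNPA0 and SRSF9, and in 4.07% of all 35116 promoters. In the genes that the authors' table marks as 5′TOP mRNAs it was found in 52 of 82 with a promoter (63.4%). That mark covers 106 genes in the table and 0 of the 37 members, HNRNPA1 included. The windows below run from 10 bases before the start to 20 bases from it, with the C/T tract in capitals. HNRNPA0 and SRSF9 hold the tract, HNRNPA3 has a shorter one, and HNRNPA2B1 and SRSF7 have none.
HNRNPA0, chr5:137754344-137754373, minus strand: gttcagcggcCTCTTTgtgtggtgcccaga
SRSF9, chr12:120469729-120469758, minus strand: ctccgccgacCCCTTCgcttccgctccgcg
HNRNPA3, chr2:177212784-177212813, plus strand: cgagtccggtCTCaaaatggaggtaaaacc
HNRNPA2B1, chr7:26200727-26200756, minus strand: ctctagcggcagtagcagcagcgccgggtc
SRSF7, chr2:38751475-38751504, minus strand: cccgcgtgttagtctcttcagttccttccg

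Of the 37 members, 29 reached 10 counts in at least 3 input libraries and were tested, 19 HNRNP and 10 SRSF genes. Levels are given as CPM, counts in proportion to the scaled size of the library, and are compared between genes only per kb of coding sequence. Per coding kb in DMSO input, HNRNPC, which binds uridine tracts in introns, was highest with 1354 ± 137 CPM per kb (SD, n = 3). HNRNPA2B1, which sorts and represses exons much like HNRNPA1, followed with 1177 ± 222 CPM per kb, and the spread of these neighbours overlaps. SRSF3, the smallest SR protein, had 449 ± 25.0 and HNRNPK, which binds cytosine-rich RNA, 420 ± 72.8 CPM per kb, also within their spread. The median of the 29 was 115 CPM per kb and the lowest level was that of HNRNPA0, with 20.4 ± 6.33 CPM per kb. HNRNPA1, a gene on the plus strand at chr12:54280193-54287088 (GRCh38, Gencode 44), stood at 70.1 ± 5.38 CPM per kb, but this value is measured on little of its sequence. Reads that align to reading frames of more than one symbol were not counted by the authors, and only 20.5% of the 30-base windows of the HNRNPA1 reading frame occur in no other symbol's frame. The symbol listed as HNRNPA1P48 holds 67.6% of its windows. Per kb of unique sequence the HNRNPA1 level would be 342 CPM, if every HNRNPA1 transcript holds the unique windows, which was not determined. Among the other tested members the unique share was 37.7% for SRSF6, 69.4% for HNRNPL, 82.7% for HNRNPC and above 95% for the rest.

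Most of these mRNAs carried many footprints for their input already under DMSO. The log2 ratio of footprint to input CPM in DMSO had a median of 1.40 over the 29 members and of -0.05 over all 10663 genes tested. It lay above the median of all genes in 28 of the 29, with HNRNPUL1 as the exception at -0.20, and 19 members were within the highest 10% of all genes. HNRNPA0 ranked 5 of 10663 with a log2 ratio of 3.98 ± 0.43, and HNRNPD, which binds AU-rich elements, ranked 6 with 3.93 ± 0.29. HNRNPL followed at 2.39 ± 0.15. These ratios are taken from the group means, and the SD is that of the log2 ratios of the 3 single dishes. DMSO input was 33, 59 and 57 counts for HNRNPA0 and 137, 234 and 169 counts for HNRNPD. Whether low recovery in input raised their ratios was not tested. HNRNPA1 lay near the middle of all genes, with a log2 ratio of 0.18 ± 0.43, and under trametinib it stood at -1.14. Its values were -0.02, -0.18 and 0.63 in the DMSO dishes and -1.13, -1.06 and -1.22 in the trametinib dishes, and these do not overlap. The ratio rests on the 20.5% of HNRNPA1 windows found in no other symbol's frame, which limits its comparison with other genes.

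**Figure D1:**
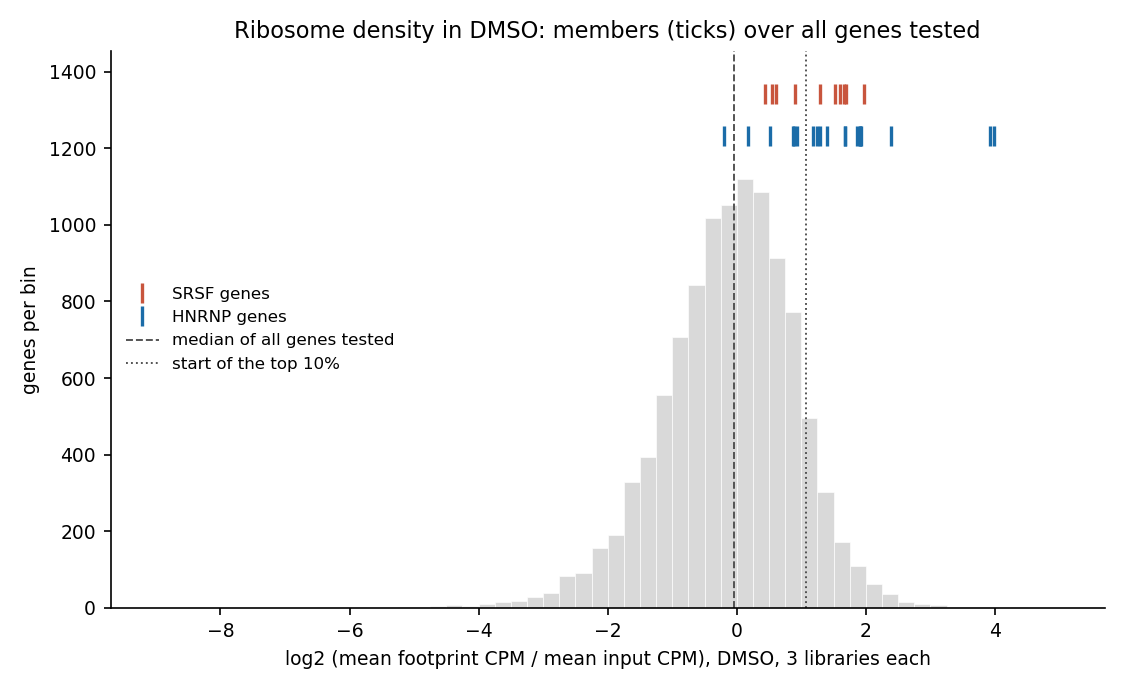
Ribosome density under DMSO. The x axis is the log2 ratio of mean footprint CPM to mean input CPM and the grey bars count genes per bin of 0.25 (10660 of the 10663 genes tested; 3 had no finite ratio). Ticks mark the 29 members tested, HNRNP genes in blue and SRSF genes in red, the dashed line is the median of all genes (-0.05) and the dotted line the start of the top 10% (1.08); 28 of the 29 ticks lie to the right of the dashed line.

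The first comparison asked how mRNA abundance changed. In input, 16 of the 29 members fell and 1 rose (edgeR quasi-likelihood test, Benjamini-Hochberg adjusted p under 0.05), while 16.8% of all genes tested fell and 15.4% rose. The median log2 change of the members was -0.57, against -0.00 for all genes, and 26 of 29 estimates were below 0 (50.2% over all genes). The trametinib libraries lay entirely below the DMSO libraries for 19 members and above them for 1, and over all genes this held for 23.2% and 23.5%. Among the 19 HNRNP genes 11 fell and HNRNPH2 rose, and among the 10 SRSF genes 5 fell. Without DMSO replicate 1 the number of members that fell was 17, and leaving out single libraries gave 11 to 17. Over all genes 1221 to 1923 fell in these fits, with 1923 without DMSO replicate 1, against 1787 with all libraries.

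The A/B and D type hnRNPs, which include the major exon silencers, had a median log2 change of -1.12 in input, and 6 of 7 fell. HNRNPD had 50.0, 84.8 and 67.2 CPM under DMSO and 35.6, 17.1 and 18.4 CPM under trametinib. All trametinib values were below all DMSO values, and trametinib replicate 1 was the highest of its group. Its log2 change was -1.50 (SE 0.28, adjusted p = 0.00139, edgeR). HNRNPAB, a shuttling protein of this type, fell from 146, 172 and 218 CPM to 65.9, 71.1 and 77.2 CPM, a log2 change of -1.32 (SE 0.18, adjusted p = 0.000115, edgeR). The groups were far apart, with the lowest DMSO library above the highest trametinib library. HNRNPA2B1 went from 967, 1419 and 1224 CPM to 506, 662 and 596 CPM, 48.8% of its DMSO level (log2 change -1.03, SE 0.17, edgeR adjusted p = 0.000516). HNRNPDL, a close relative of HNRNPD that regulates its own splicing, and HNRNPA0, a binder of AU-rich mRNAs, were at 46.0% and 42.8% of DMSO. HNRNPA3 fell less, to 61.2%. HNRNPA1 is the exception in this group: its input CPM was 74.8, 85.2 and 74.7 under DMSO and 84.5, 81.6 and 83.8 under trametinib. These groups overlap, and the log2 change was 0.09 with a 95% confidence interval from -0.23 to 0.42 (adjusted p = 0.679, edgeR).

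The F and H type hnRNPs, which bind runs of guanine, went in different directions. HNRNPH3 fell from 136, 120 and 134 CPM to 51.4, 66.3 and 64.1 CPM (log2 change -1.10, SE 0.16, edgeR adjusted p = 0.000241). HNRNPH2, the X-linked close relative of HNRNPH1, rose from 42.0, 45.3 and 34.6 CPM to 80.1, 87.3 and 68.4 CPM. Every trametinib library lay above every DMSO library, and the log2 change was 0.95 (SE 0.18, edgeR adjusted p = 0.00131), that is 1.93-fold. HNRNPF fell to 67.4% of DMSO, and HNRNPH1 had a log2 change of -0.23 that did not pass the test. Since 97.0% of the HNRNPH2 windows and 95.5% of the HNRNPH1 windows are unique, few reads can be shared between them. HNRNPH2 and HNRNPH1 share 2.96% of their windows.

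Among the other hnRNPs, 3 of 8 fell in input. HNRNPL, which binds CA repeats, fell from 143, 174 and 162 CPM to 87.8, 75.1 and 74.1 CPM, without overlap (log2 change -1.02, SE 0.15, edgeR adjusted p = 0.000323). HNRNPM and HNRNPR fell to 58.6% and 71.1% of DMSO. HNRNPC, HNRNPK, HNRNPU, HNRNPUL1 and HNRNPLL did not pass, with log2 changes between -0.40 (HNRNPU, adjusted p = 0.0516, edgeR) and 0.06 (HNRNPK).

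Of the SR proteins, SRSF7, a zinc knuckle protein that couples splicing to export and polyadenylation, changed most in input. Its CPM was 193, 171 and 157 under DMSO and 66.7, 72.4 and 64.9 under trametinib, so that the lowest DMSO library was more than 2-fold above the highest trametinib library. The log2 change was -1.35 (SE 0.15, edgeR adjusted p = 2.9e-05). SRSF3, SRSF10, SRSF2 and SRSF5 also fell, to between 59.9% and 66.5% of DMSO. In SRSF2, an exon enhancer binder often mutated in leukaemia, DMSO replicate 3 was high, with 225 CPM against 103 and 124 CPM in the other DMSO libraries and 85.7 to 95.2 CPM under trametinib. SRSF4, SRSF6, SRSF8, SRSF9 and SRSF11 did not pass, with log2 changes from -0.43 to -0.09.

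The second comparison took all ribosomes on each mRNA. In footprints 19 of the 29 members fell and 1, HNRNPH2, rose, while 25.6% of all genes fell and 23.9% rose. The median log2 change was -0.47 for the members and -0.01 for all genes, and 28 of 29 estimates were below 0 (50.8% over all genes). The libraries did not overlap, with trametinib lower, for 24 members, against 30.3% of all genes, and with trametinib higher for 1, against 29.3%. All 7 of the A/B and D type fell, 3 of 4 of the F and H type, 4 of 8 other hnRNPs and 5 of 10 SR genes. With library totals in place of trimmed-mean scaling, the median of all footprint changes moved to 0.16, calls among all genes went from 48.3% to 64.8% higher, 18.2% of all genes passed as lower, and 14 members did, all among the 19 above. The 5 that no longer passed were HNRNPA0, HNRNPH1, HNRNPR, HNRNPU and SRSF11. Leaving out single libraries gave 13 to 21 members that fell, with 21 without DMSO replicate 1, and 0 or 1 that rose. Over all genes 2012 to 3247 fell in these fits, with 3247 without DMSO replicate 1, against 2727 with all libraries.

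SRSF7 had the largest fall in footprints, from 578, 439 and 480 CPM to 140, 142 and 162 CPM. The groups were widely separated, and trametinib left 29.6% of the DMSO level (log2 change -1.76, SE 0.13, edgeR adjusted p = 1.66e-05). HNRNPDL fell from 376, 389 and 459 CPM to 144, 141 and 169 CPM, 37.1% of DMSO (log2 change -1.43, SE 0.13, edgeR adjusted p = 4.13e-05). HNRNPL was the most even, with 849, 846 and 827 CPM under DMSO and 403, 398 and 399 CPM under trametinib (log2 change -1.07, SE 0.10, edgeR adjusted p = 6.22e-05). In HNRNPAB, footprints went from 269, 346 and 372 CPM to 140, 139 and 149 CPM, a log2 change of -1.20 (SE 0.14, edgeR adjusted p = 0.000161). SRSF3 fell from 640, 729 and 727 CPM to 360, 350 and 382 CPM and HNRNPA3 from 956, 972 and 1180 CPM to 495, 520 and 589 CPM, with log2 changes of -0.94 and -0.95. In both genes the groups did not overlap and somewhat more than 50% of the footprints remained. HNRNPH2 footprints were 118, 124 and 146 CPM under DMSO and 166, 169 and 179 CPM under trametinib, a log2 change of 0.40 (SE 0.11, edgeR adjusted p = 0.0177). This call was lost when DMSO footprint replicate 2 or any one trametinib footprint library was left out, with adjusted p from 0.0551 to 0.0627.

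**Figure D2:**
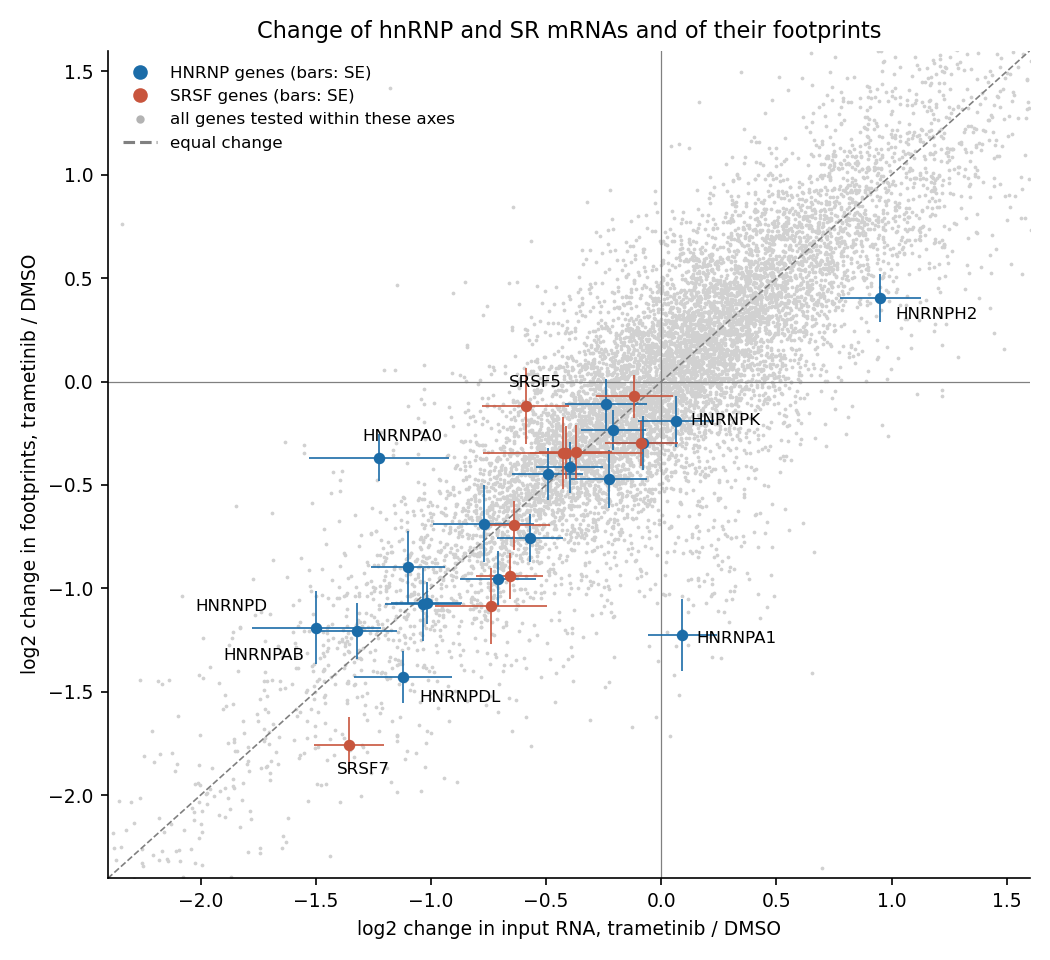
Log2 change under trametinib in input RNA (x axis) and in footprints (y axis) of the 29 members tested, with standard errors as bars, HNRNP genes in blue and SRSF genes in red; grey points are all genes tested that lie within the axes and the dashed line marks equal change. Most members lie near the line at the lower left, HNRNPA1 lies far below the line at 0.09 and -1.22, HNRNPA0 above it at -1.22 and -0.37, and HNRNPH2 stands alone at the upper right at 0.95 and 0.40.

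Set side by side, 15 members fell in both kinds of library: HNRNPA0, HNRNPA2B1, HNRNPA3, HNRNPAB, HNRNPD, HNRNPDL, HNRNPF, HNRNPH3, HNRNPL, HNRNPM, HNRNPR, SRSF2, SRSF3, SRSF7 and SRSF10. SRSF5 passed in input alone, and HNRNPA1, HNRNPH1, HNRNPU and SRSF11 passed in footprints alone. HNRNPC, HNRNPK, HNRNPLL, HNRNPUL1, SRSF4, SRSF6, SRSF8 and SRSF9 passed in neither. A level of at most 50% of DMSO was estimated for 8 members in input and for 8 in footprints. HNRNPA2B1, HNRNPAB, HNRNPD, HNRNPDL, HNRNPL and SRSF7 were in both sets, HNRNPA0 and HNRNPH3 in the first, and HNRNPA1 and SRSF2 in the second. Over all genes 16.8% fell in input and 25.6% in footprints. The shares of all genes that fell in both, or to at most 50% of DMSO, were not determined, so these sets only list the members. Passing in one kind of library and not in the other is no test of a difference, which the comparison of ribosome density gives.

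Summed over the family, the HNRNP genes took 0.596% ± 0.056 of all input counts under DMSO and 0.437% ± 0.020 under trametinib, and 1.55% ± 0.16 and 1.14% ± 0.08 of the footprint counts (SD, n = 3). The SRSF genes took 0.115% ± 0.007 and 0.0773% ± 0.0040 of the input counts, and 0.281% ± 0.010 and 0.202% ± 0.007 of the footprint counts. In all 4 cases the 3 trametinib libraries lay below the 3 DMSO libraries, with p = 0.1 in an exact two-sided permutation test, which is the smallest p that 3 against 3 allows. In such a sum the members with most counts weigh most. HNRNPA2B1 had 2650, 3916 and 3081 input counts under DMSO and 1250, 1508 and 1359 under trametinib. HNRNPC had 3638, 3057 and 2856, and 2618, 2668 and 2622.

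**Figure D3:**
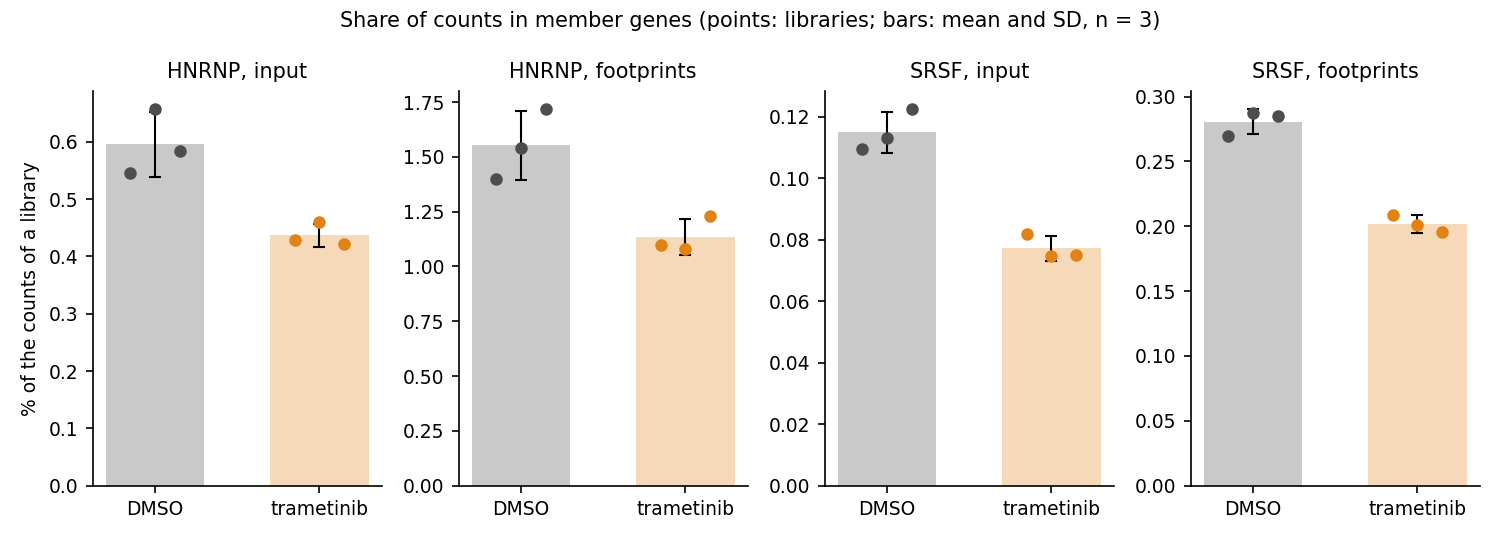
Percent of the counts of each library that fell in HNRNP or SRSF genes, in input and in footprints (points are libraries, bars and whiskers the mean and SD of 3, each panel with its own y axis from 0). In every panel the trametinib points lie below the DMSO points, with means of 0.437% against 0.596% for HNRNP genes in input and 0.202% against 0.281% for SRSF genes in footprints.

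The third comparison tested ribosome density, as the interaction of assay and treatment over all 12 libraries. HNRNPA1 was the one member that passed, in the direction of lower density, and 0 rose, in edgeR, DESeq2 and limma alike. The HNRNPA1 result rests on the 20.5% of its windows found in no other symbol's frame. Over all genes 0.816% had a lower and 0.0938% a higher density. The median change of the members was 0.03 on the log2 scale and that of all genes 0.07, and 12 of 29 estimates were below 0 (40.7% over all genes). For the other 28 members no change in footprints beyond that in input was detected, relative to the average mRNA. A change in translation shared by all mRNAs cancels in the scaling. The paper reports that trametinib lowered global translation in these cells, and that fall is not measured here. At an unadjusted p under 0.05, 2 members were lower and 1 higher, against 3.47% and 5.34% of all genes. The median standard error of a density change was 0.21 for the members. Scaling by library totals moved the median density change of all genes to 0.18 and the higher share of all calls from 10.3% to 25.7%, and gave the same counts of members.

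HNRNPA1 footprints were 1253, 725 and 1989 raw counts under DMSO and 789, 594 and 475 under trametinib, and input was 205, 235 and 188 counts under DMSO and 209, 186 and 191 under trametinib. After scaling, footprints were 74.0, 75.4 and 115.8 CPM under DMSO and 38.6, 39.0 and 35.9 CPM under trametinib. DMSO replicate 3 was high, and the trametinib libraries were all close to each other and below every DMSO library. Footprints fell by 1.22 on the log2 scale (SE 0.18, edgeR adjusted p = 0.000591) and density by 1.24 (SE 0.23, 95% confidence interval -1.74 to -0.74, edgeR adjusted p = 0.0166), to 42.3% of DMSO. Across 21 alternatives the density change ranged from -1.36 to -0.98 and passed in 20. Without DMSO footprint replicate 3 it was -0.98 with an adjusted p of 0.0136 in edgeR. It did not pass without trametinib footprint replicate 2 (-1.26, edgeR adjusted p = 0.0573). Without both libraries of DMSO replicate 1 it was -1.35 (edgeR adjusted p = 0.00225). The members with the most similar pattern over the 12 libraries, by Euclidean distance of log2 CPM centred on the DMSO mean of each assay, were HNRNPF (1.46), HNRNPH1 (1.48) and SRSF3 (1.50). Their density changes were -0.11, -0.17 and -0.21, none of which passed. All HNRNPA1 values here rest on 20.5% of the windows of its reading frame of 1116 bases. The frame of HNRNPA1P48, the main sharing symbol, has 960 bases. Whether the unique windows lie in every HNRNPA1 transcript was not determined, so the values may stand for only part of its transcripts.

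HNRNPA0, with a pyrimidine tract at its annotated start shown above and the highest member density under DMSO, had the largest estimate in the other direction. Its input was low, at 33, 59 and 57 counts under DMSO and 16, 19 and 21 under trametinib, while footprints were 4598, 3171 and 4839 counts and 4711, 3554 and 2902 counts. In CPM, input fell from 12.0, 21.4 and 22.6 to 6.47, 8.34 and 9.21, whereas footprints went from 272, 330 and 282 to 231, 233 and 220. The density change was 0.93 (SE 0.29, 95% confidence interval 0.30 to 1.56) and did not pass (edgeR adjusted p = 0.257). It passed in 2 of 21 alternatives, without DMSO input replicate 1 (1.17, edgeR adjusted p = 0.0267) and without both libraries of that dish (1.09, edgeR adjusted p = 0.0294), the library with the lowest DMSO input. Its fall in footprints, 0.37 on the log2 scale, passed in 8 of 13 alternatives, and with library totals it was -0.19 (edgeR adjusted p = 0.198). SRSF9, the other member with a tract, had log2 changes of -0.12 in input, -0.07 in footprints and 0.12 in density, and none passed.

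For HNRNPH2 the rise in input, 0.95, was larger than that in footprints, 0.40, and its density change was -0.47 (95% confidence interval -0.90 to -0.04, edgeR adjusted p = 0.499), which does not pass. SRSF5 had input of 77.4, 100 and 70.7 CPM under DMSO and 65.5, 47.4 and 52.2 CPM under trametinib, with footprints of 303, 372 and 296 CPM and 359, 316 and 220 CPM that overlap. The density change was 0.55 (95% confidence interval -0.04 to 1.13, edgeR adjusted p = 0.605). For SRSF7 it was -0.33 (95% confidence interval -0.74 to 0.09) and for HNRNPD 0.38 (95% confidence interval -0.40 to 1.17). Intervals this wide leave room for changes of a size that these libraries could not detect.

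**Figure D4:**
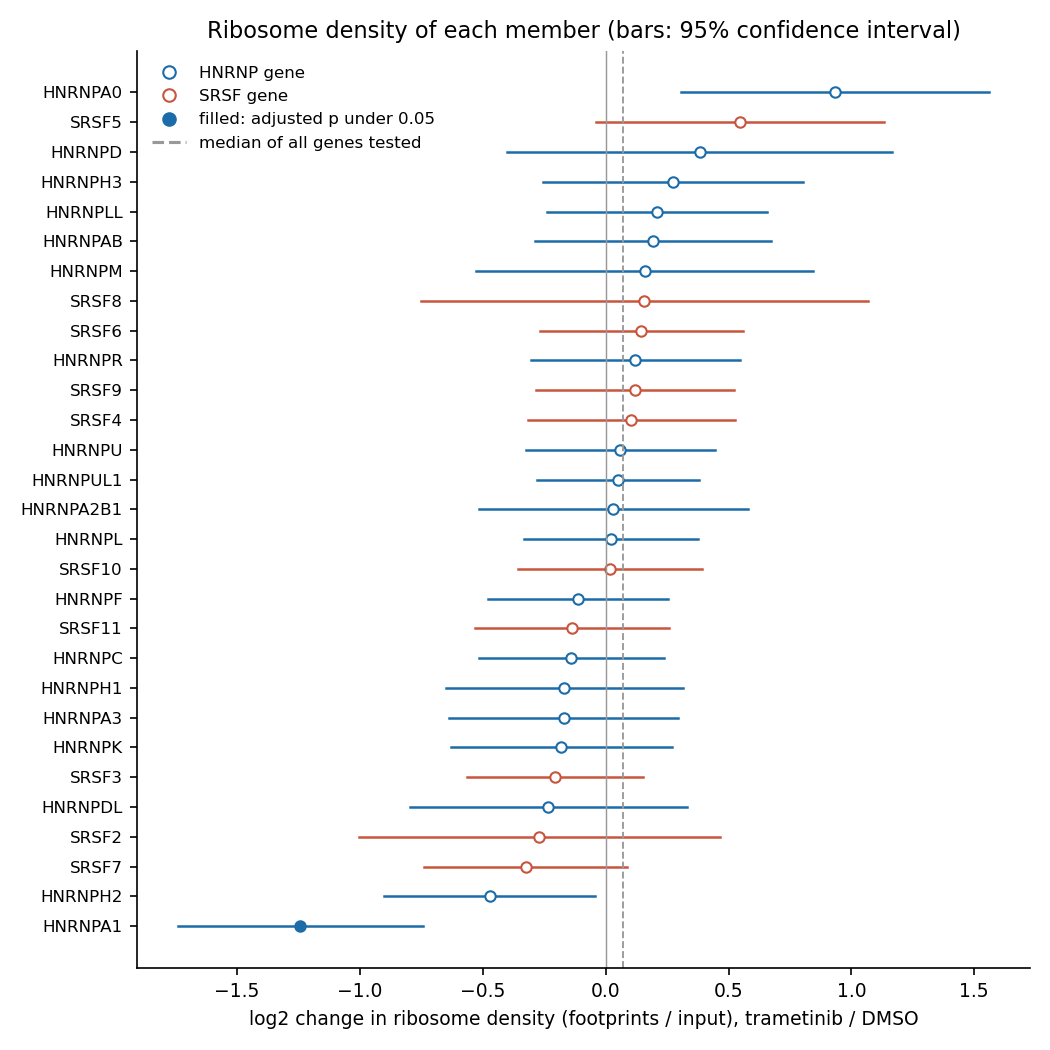
Change of ribosome density under trametinib on the log2 scale for the 29 members tested, sorted by estimate, where points are estimates and bars 95% confidence intervals from the edgeR fit over 12 libraries, HNRNP genes in blue and SRSF genes in red, with a filled point where the adjusted p was under 0.05 and the dashed line at the median of all genes (0.07). HNRNPA1 at -1.24 is the one filled point, and the intervals of HNRNPH2 below 0 and HNRNPA0 above 0 are the only others that do not reach 0.

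**Figure D5:**
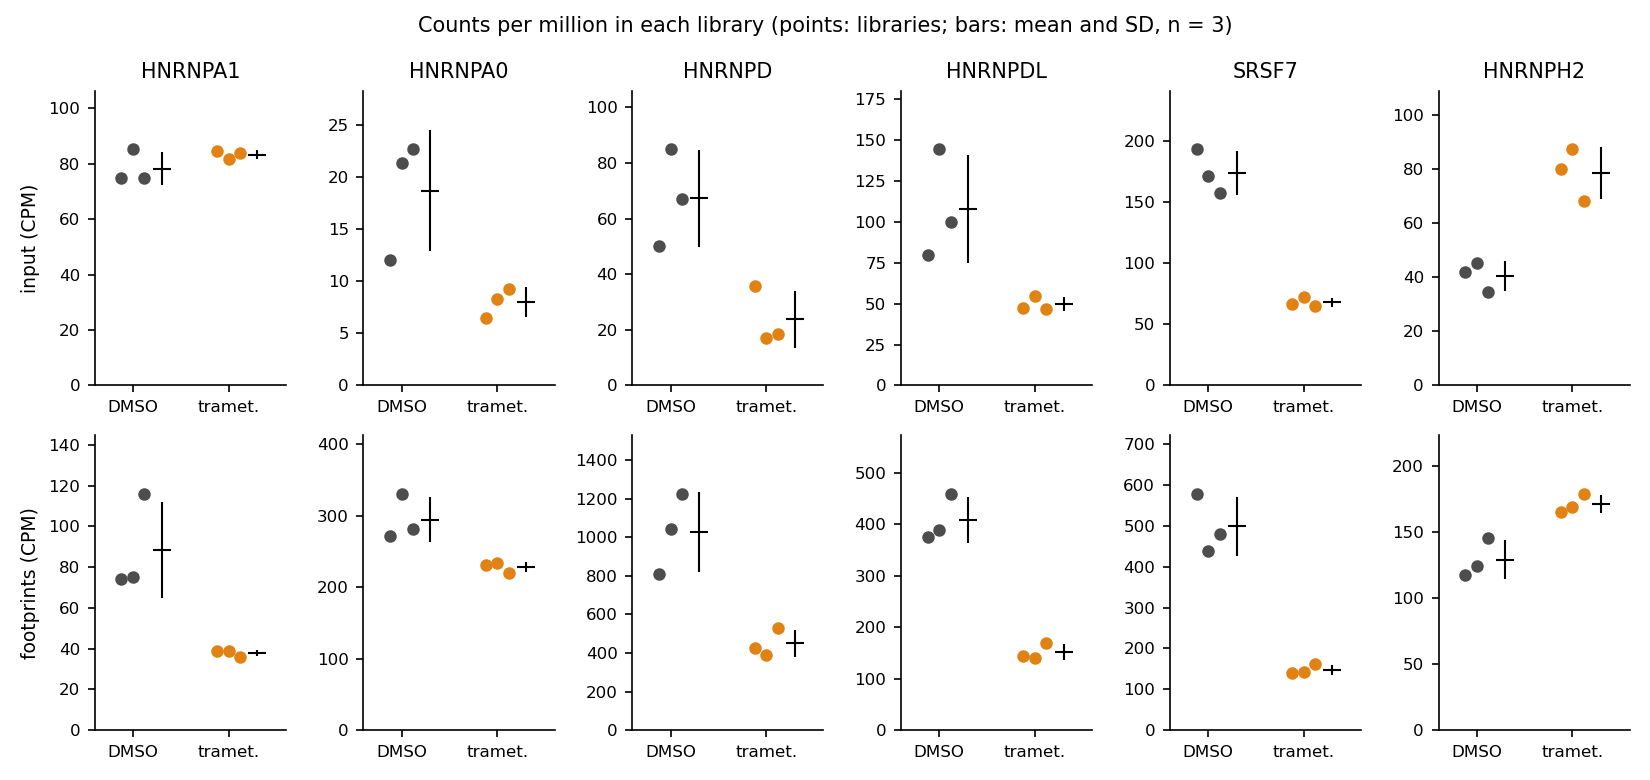
Scaled CPM in each library of 6 members, input in the upper row and footprints in the lower row (points are the 3 libraries of a group in order of replicate number, the marks beside them the mean and SD, each panel with its own y axis from 0). HNRNPA1 is level in input and separated in footprints, HNRNPA0 differs more in input than in footprints, HNRNPD, HNRNPDL and SRSF7 are lower under trametinib in both rows, and HNRNPH2 is higher in both.

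The promoters of the members were also searched for 4 motifs on both strands. The E-box CACGTG, bound by MYC and by the USF factors, was in 7 of 34 member promoters (20.6%) and in 7.26% of all promoters. CCGGAA, the core bound by ETS factors, was in 6 (17.6% against 17.2%), CCAAT in 18 (52.9% against 34.6%) and the GC box GGGCGG in 21 (61.8% against 45.0%). None of these motifs contains another. Here and for the start tract, each member had 1 promoter, while the shares of all promoters were neither reduced to 1 per gene nor limited to the genes tested. The 2 sets are thus unlike, and the difference in share was not tested. The E-box members were HNRNPA3, HNRNPD, HNRNPDL, HNRNPH3 and HNRNPM, which fell in input, HNRNPH2, which rose, and HNRNPUL1, which did not pass. HNRNPH2 holds 2 E-boxes within this window, and the others 1 each. These stretches of 30 bases, with the E-box in capitals, are shown because they come from the member that rose and from members that fell.
HNRNPH2, chrX:101408168-101408197, plus strand, E-box 42 bases before the start: ccgagagttgctCACGTGaccgagatctca
HNRNPH2, chrX:101408201-101408230, plus strand, E-box 9 bases before the start: gacgtaggcgctCACGTGattactcgctta
HNRNPD, chr4:82374001-82374030, minus strand, E-box 27 bases before the start: gcgctctcgcgtCACGTGaccgggacgcgc
HNRNPH3, chr10:68331631-68331660, plus strand, E-box 50 bases before the start: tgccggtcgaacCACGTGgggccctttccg
HNRNPM, chr19:8444921-8444950, plus strand, E-box 42 bases before the start: gttgcgtcgggtCACGTGggcgcgcaggcg
Whether the match has a part in a change of either direction was not tested. Occurrence of these letters is a description of the sequence and not of binding.

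Other genes of the splicing machinery were read from lists of named factors, to be set against the 16.8% of all genes that fell in input and the 25.6% that fell in footprints. Of 15 hnRNPs known under other symbols, 6 fell in input, and 7 fell and 1 rose in footprints. DAZAP1, an RNA-binding protein of this list, fell in both, with log2 changes of -0.99 and -1.18. Of 20 SR-related factors 6 fell in input and 7 in footprints, among them TRA2B, an SR-like enhancer binder, with -0.83 and -0.80. PNN, an exon junction protein, had -0.78 and -1.07. Of 11 SR protein kinases and importins 2 fell in input (18.2%, near the share of all genes) and 4 in footprints (36.4%). TNPO1, the importin that carries HNRNPA1 and other hnRNPs to the nucleus, changed by -0.54 and -0.72, while CLK2, a kinase of SR proteins, changed by -0.07 in input, which did not pass, and by -0.52 in footprints.

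Core spliceosome genes were read in the same way and against the same shares of all genes, 16.8% in input and 25.6% in footprints. Of 17 Sm and snRNP proteins 9 fell in input and 13 in footprints, with median log2 changes of -0.53 and -0.72. SNRPA1 of the U2 particle changed by -1.22 and -1.60 and SNRPB, a shared Sm protein, by -0.89 and -1.06. Of 26 U2, SF3 and PRPF proteins 7 fell in input (26.9%) and 11 in footprints (42.3%), including PHF5A, a small SF3B subunit, with -0.81 and -1.15. PRPF3, a tri-snRNP protein, had -0.57 and -0.86. Of 20 other splicing regulators 5 fell and 1 rose in input, and 6 fell (30%, near the share of all genes) and 1 rose in footprints. SFPQ, a paraspeckle protein, changed by -0.74 and -0.93, and RBM10 by -0.05, which did not pass, and -0.53. The median density change of these 6 lists ran from -0.11 to 0.12 on the log2 scale.

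The other 8 members had too little input to be tested. HNRNPUL2 had 1 to 9 counts in the input libraries and 156 to 403 in the footprint libraries, with 3.53% of its windows unique, because the readthrough symbol HNRNPUL2-BSCL2 shares nearly all of its frame. SRSF1, the founding SR protein, had 3 to 16 input counts, with 16, 14 and 7 under DMSO and 7, 6 and 3 under trametinib. Its footprints were 256, 140 and 348 counts under DMSO and 121, 115 and 94 under trametinib. Only 26.7% of its windows are unique and the rest also occur in the frame of a second symbol, so its counts cover a small part of its sequence. HNRNPA1P48, HNRNPCL1 and HNRNPCL2 had at most 5 input counts and at most 19 footprint counts in any library. HNRNPCL4, HNRNPUL2-BSCL2 and SRSF12 had at most 2 counts in any library.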

How the data were processed

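The authors removed adapters, discarded reads matching rRNA or tRNA (Bowtie 1.2.2) and mapped the rest to the basic transcript set of Gencode 38. The deposited table holds raw whole-number counts per gene symbol, for reads of 25 to 35 nt inside reading frames of that symbol alone. Its 12 columns of normalized values per library, and the authors' DESeq2 1.46.0 fold changes and p-values, were not used here. Groups and replicate numbers came from the labels. The members and lists were chosen with earlier results of these data known.

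Counts were tested with edgeR 4.0.16 in R 4.3.3 (quasi-likelihood test, TMM scaling) on the 10663 genes that reached 10 counts in 3 or more input libraries, each assay alone and, for ribosome density, as the assay by treatment interaction over 12 libraries. P-values were adjusted by Benjamini-Hochberg over all genes tested, with 0.05 as threshold. The fits were tested on simulated data. CPM values are TMM-scaled and carry no pseudocount. Alternatives were median-of-ratios scaling, library totals, no filter, a filter on either kind of library, DESeq2 1.42.0 (a likelihood ratio test for density), limma 3.58.1, a 2-fold minimum, an adjusted p under 0.1, blocks and each library left out. Input and footprints of one number come from one lysate per the methods, yet their deviations correlated between -0.13 and 0.81 over 8419 genes, and between treatments same-numbered libraries correlated between 0.06 and 0.33 in input and 0.11 and 0.29 in footprints. Total counts per library are given with the results, and values under about 10 counts are imprecise. Windows shared between symbols and coding lengths were computed on Gencode 44, and promoters came from RefSeq (GRCh38.p14).

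Named genes were HNRNPA1, each member that passed in ribosome density, the 6 members per direction with the smallest p in input and in footprints, and 2 genes per list with the smallest p in footprints, of which one is not reported here. HNRNPA0, SRSF2, SRSF5, SRSF9 and the remaining values given for single members were added after the values were seen.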

Additional observations from a re-analysis of the deposited data

How the results depend on the processing

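HNRNPA1 and the members named by the smallest p kept their direction under every alternative run, 253 of their values kept their side of the threshold and 9 did not. HNRNPA0, which is not in that tally, passed in footprints under 8 of 13 alternatives and in density under 2 of 21. With single libraries left out, between 11 and 17 members fell in input and 1 rose. Over all genes 1221 to 1923 fell, against 1787 with all libraries. For footprints, between 13 and 21 members fell and 0 to 1 rose. Over all genes 2012 to 3247 fell, against 2727. In ribosome density 0 to 1 members rose and 0 to 1 fell, with 1 to 12 and 49 to 101 over all genes. Without DMSO input replicate 1, or without both libraries of that dish (added after seeing the data), 1 member rose in density, HNRNPA0. Without trametinib footprint replicate 2, 0 fell, and HNRNPA1 had an adjusted p of 0.0573. With an estimate of at least 2-fold required, 0 rose and 8 fell in input, and 0 rose and 8 fell in footprints, since fewer estimates reach that size. The counts of all genes at that size were not determined. With the replicate block, 18 members fell and 1 rose in input, and 20 fell and 1 rose in footprints. Over all genes the block gave 2053 that fell in input, against 1787 without it, and 2725 in footprints, against 2727. HNRNPA1 density was -1.22 with the replicate block and -1.21 (adjusted p = 0.00381, edgeR) with a block for each dish, and blocking changed no other call of density in the members. Per kb of sequence unique to a symbol, added after seeing the data, the median level in DMSO input was 131 CPM per kb instead of 115. Over all genes, density calls were 10 higher and 87 lower in edgeR and 37 higher and 150 lower in DESeq2. Depth of the input libraries limited what could be tested: members that did not reach 10 input counts in 3 libraries were not tested.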
